A study of Bos taurus with 20 samples.

Results

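The insulin-like growth factor (IGF) system of the bovine ovarian follicle was described through 10 genes, the ligands IGF1 and IGF2, the receptors IGF1R and IGF2R, the binding proteins IGFBP2, IGFBP3, IGFBP4, IGFBP5, and IGFBP6, and the protease PAPPA. The genes were taken by name from a custom bovine Agilent microarray, on which they had 26 of the 61325 non-control probes and made 10 of 22550 genes or transcripts. Of the 10 genes, 8 were found by the gene name on the array. The others, IGF1 and IGF1R, stand there under the older names IGF-I and IGFR1 and were matched through the RefSeq accession of their probes. IGF1 had 6 probes, IGF2 had 4, and each of the other 8 genes had 2.

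Follicles of 3 to 6 mm came from cow ovaries collected after slaughter, and the labels give no treatment or genotype of the animals. The study hybridized 5 groups, with 4 arrays in each. Theca cells (TH) were scraped from the follicle wall, granulosa cells (GC) came from punctured follicles, and cumulus cells (CC) and oocytes were separated from immature cumulus-oocyte complexes. The remaining group was CC detached after 4 h of in vitro maturation (IVM), the culture in which the complex resumes meiosis. Each array was hybridized in 1 colour, from 200 ng of total RNA per sample. The question of the first comparison was in which of the 4 cell types each gene was expressed, and that of the second was which of them changed in CC during IVM.

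IGF1 and IGF2 are secreted growth factors that act mainly through IGF1R, a receptor tyrosine kinase, while IGF2R binds IGF2 and carries it to the lysosome. Most IGF outside the cell is held by binding proteins, which limit its access to the receptor, and PAPPA is a secreted metalloproteinase that cleaves IGFBP4 and IGFBP5 and thereby releases the ligand. In the ovary IGF signalling is known to act together with FSH and LH on proliferation and steroid synthesis, and cleavage of the low molecular weight binding proteins is a known feature of the dominant follicle.

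A value in the text is log2 of the background-subtracted signal of a spot minus the 75th percentile of its array, taken as the median over all spots of the gene, so 0 is a spot brighter than most of the array and the value is compared only between arrays, never between genes. Means are given ± SD with n = 4 arrays a group. A spot is called above background where the scanner software marked it well above background, which held for 49.3% to 68.8% of the probes of an array, with the lowest share on oocyte replicate 2. Tests are from limma, with Benjamini-Hochberg adjustment over all 22550 genes and a threshold of 0.05, and a difference is in log2 units with its standard error (SE). TH, GC, CC, and oocyte arrays were split over 2 slides, replicates 1 and 2 on one and 3 and 4 on the other, and all 4 arrays of CC after IVM lay on a slide of their own. IVM and slide can therefore not be told apart by design. In bulk RNA, fewer cells of a type and less RNA of a gene per cell cannot be told apart.

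The cell type labels were checked against marker lists. Of 8 theca markers, 7 had their highest mean in TH, and all 7 oocyte markers had theirs in oocytes. Of 7 markers of granulosa and cumulus cells, 5 were highest in CC and 2 in CC after IVM, and their mean was lowest in oocytes, at -3.70 to -3.10. The mean over the 8 theca markers was 3.52 to 3.86 in TH, and in GC it was -1.67, 0.53, 0.41, and -0.45 on replicates 1 to 4. None of the 8 was below background on every GC array. TH, scraped from the wall, also held the highest mean of 4 of 5 endothelial markers and of 5 of 5 markers of smooth muscle and pericytes, and of 2 of 4 leukocyte markers.

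The probes are 60 bases long, and the sequences on which the results turn are shown here as the array gives them, 5′ to 3′, with the UMD 3.1 coordinates of the transcript they were designed on. Where within the transcript a probe lies was not analysed here. Each of the full probes shown has at least 1 reading frame without a stop codon. PAPPA-201 spans chromosome 8 from 107150317 to 107379748, and its probes do not overlap.
PAPPA probe 1: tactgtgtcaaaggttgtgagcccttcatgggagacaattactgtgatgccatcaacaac
PAPPA probe 2: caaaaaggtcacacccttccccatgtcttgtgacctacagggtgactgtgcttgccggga

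The receptor probes lie on IGFR1-201, on chromosome 21 from 8208822 to 8268093, and on IGF2R-201, on chromosome 9 from 97638172 to 97740003.
IGF1R probe 1: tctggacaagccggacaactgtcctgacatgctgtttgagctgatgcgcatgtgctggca
IGF1R probe 2: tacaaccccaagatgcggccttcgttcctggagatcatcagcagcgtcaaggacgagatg
IGF2R probe 1: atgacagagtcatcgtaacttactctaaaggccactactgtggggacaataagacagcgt
IGF2R probe 2: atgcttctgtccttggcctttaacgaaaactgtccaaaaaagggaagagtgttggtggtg

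Of the IGF2 probes, 2 lie on IGF2-201 (chromosome 29 from 50046626 to 50065230) and 2 on IGF2-202 (chromosome 29 from 50058063 to 50062631). Probes 3 and 4 of IGF2-202 share 42 of their 60 bases and are shifted by 18, so they read nearly the same stretch. The first 30 bases of probe 4 and the last 30 of probe 3 are shown, with the 18 bases that the other probe lacks in capitals. They are shown because their difference between oocytes and CC was not the same.
IGF2 probe 4: AATCATGAACCCCTCAATcagcccccttga
IGF2 probe 3: caacaccagaaaAGCAAACTAGCTTTCCAA

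The IGF1 probes lie on 3 transcripts of chromosome 5, IGF-I-201 (66532877 to 66604734), IGF-I-202 (66546447 to 66602683) and IGF-I-203 (66546447 to 66604734). Probes 4 and 6 have the same sequence on different transcripts, so the 6 spots read 5 sequences. The first 30 bases of those that gave different results are shown.
IGF1 probe 1: aaatgtgacattgctctcaacatctcccat
IGF1 probe 3: agaagtatcagcccccatctaccaacaaga
IGF1 probes 4 and 6: tgttgtaggaagtggccgataaacatggag

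The overlap of probes also holds for 3 binding proteins. The pairs share 52 bases for IGFBP2, 50 for IGFBP4, and 45 for IGFBP6, so agreement between the probes of these genes is a check on the spot and not on the transcript. The IGFBP3 probes do not overlap and are shown, by their first 30 bases, for the change after IVM.
IGFBP3 probe 1: catggtgaacctggcatctttccactttcc
IGFBP3 probe 2: tcgttgcttcctataaaaatacttgtaagc

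By the F-test over TH, GC, CC, and oocytes, 8 of the 10 genes differed between cell types, beside 71.3% of all genes. IGF2R (adjusted p = 0.21) and PAPPA (adjusted p = 0.92) did not pass. Of the pairs, TH and GC differed in 8 genes, beside 26.3% of all genes, with 5 higher in TH (11.8% of all genes) and 3 lower (14.5%). TH and CC differed in 6, beside 31.8%, with 5 higher in TH (14.4%) and 1 lower (17.4%). GC and CC differed in 6, beside 9.88%, with 4 higher in GC (4.61%) and 2 lower (5.27%). Oocytes differed from TH in 5 genes, beside 64.6%, with none higher in oocytes (32.5%) and 5 lower (32.1%). They differed from GC in 7, beside 68.6%, with 1 higher (30.7%) and 6 lower (37.9%), and from CC in 6, beside 63.7%, with 1 higher (31.8%) and 5 lower (32%). The numbers called against oocytes were thus at or near the background of all genes. IGF1, IGF2, IGFBP4, and IGFBP6 were higher in TH than in each of the other cell types by these tests, and IGFBP5 was higher in GC than in each of them. Other scalings moved the oocyte counts. Against TH, 1 gene was higher and 5 lower in oocytes with quantile normalization, 1 and 6 with the deposited table, and 0 and 7 with normexp correction. Against GC the split was 1 and 9 with normexp correction and 1 and 7 with the deposited table, and against CC it was 1 and 8 and 2 and 7.

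The all-gene median difference was not 0 in most comparisons. It was -0.22 for TH minus GC, 0.00 for TH minus CC, 0.16 for GC minus CC, -0.42, -0.62, and -0.40 for oocytes minus TH, GC, and CC, and 0.37 for CC after IVM minus CC. After quantile normalization it lay between -0.08 and 0.05 in these 7 comparisons. For oocytes minus TH, GC, and CC it was -0.52, -0.68, and -0.65 with the deposited table and -1.16, -1.45, and -1.24 with normexp correction. For CC after IVM minus CC it was 0.25 and 0.55 under these settings. Differences of the size of these shifts are not read as changes of a gene.

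**Figure D1:**
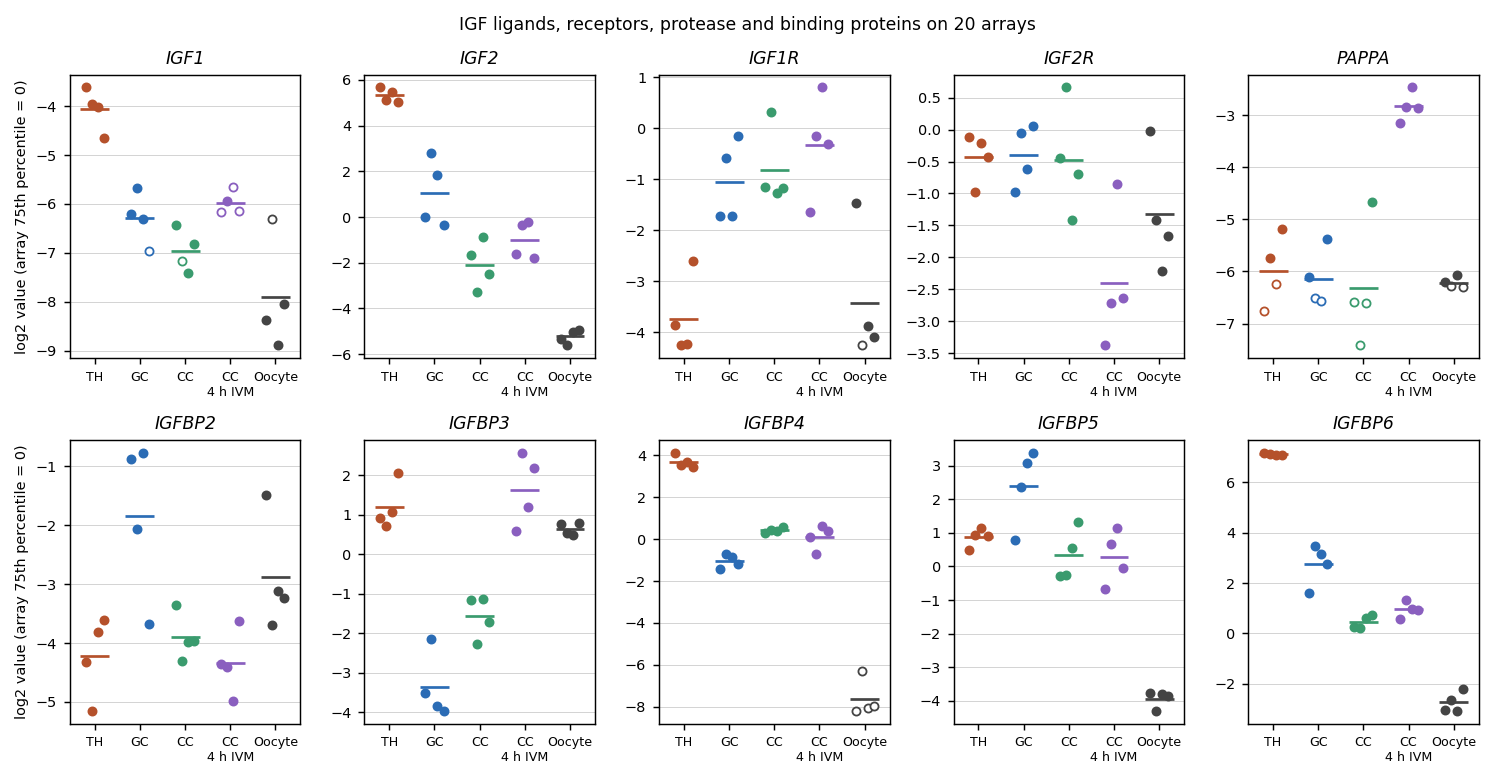
Log2 value of each of the 10 genes on the 20 arrays, by group, relative to the 75th percentile of the array. Each point is 1 array, the bar is the mean of 4 arrays, and an open point marks an array on which no probe of the gene was above background. IGF2, IGFBP4, and IGFBP6 sat highest in TH with no overlap with any other group, and PAPPA rose above its level in every other group after 4 h of IVM.

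IGF2 fell from the follicle wall towards the oocyte. In TH it was 5.67, 5.10, 5.49, and 5.05, and in GC -0.01, 2.79, 1.86, and -0.35. In CC it was -1.68, -3.26, -0.88, and -2.49, and in oocytes -5.32, -5.62, -5.01, and -4.94. None of these 4 groups overlapped with another, and the order from the wall inwards was TH, GC, CC, oocyte. All 6 pairs passed the test. IGF2 was higher in TH than in GC by 4.26 (SE 0.61, adjusted p = 7.5e-05 by limma), a 19.1-fold difference, and in GC than in CC by 3.15 (SE 0.61, adjusted p = 0.0035). Oocytes were lower than CC by the same size, with a difference of -3.15 (SE 0.61, adjusted p = 0.00026).

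IGF2 spanned -0.35 to 2.79 over the 4 GC arrays, beside 5.05 to 5.67 in TH. The GC arrays with the highest IGF2, replicates 2 and 3, were also those with the highest mean of the theca markers (0.53 and 0.41) and of the smooth muscle and pericyte markers (-0.01 and -0.26, against -1.30 and -1.35 on replicates 1 and 4). Without these 2 arrays, IGF2 in GC remained above CC by 1.90 but the difference did not pass (adjusted p = 0.053 by limma), while TH minus GC was 5.51. The part of theca tissue in the GC values was not tested. Within either slide, with 2 arrays a group, GC minus CC was 3.86 and 2.44 and did not pass (adjusted p = 0.15 and 0.24). IGFBP6 had the same 2 GC arrays on top, as the plot of both genes beside the marker means shows.

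**Figure D2:**
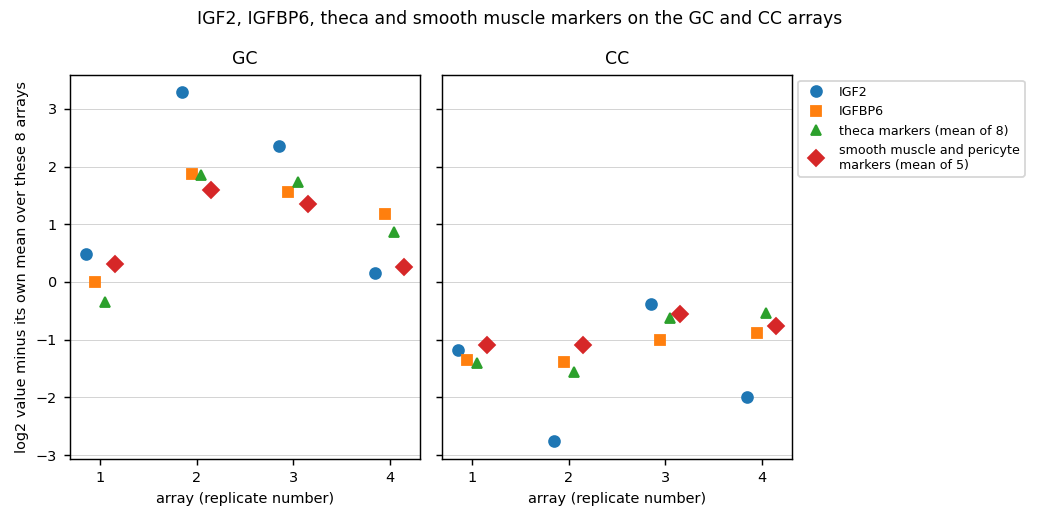
IGF2, IGFBP6, and the means of 8 theca markers and of 5 smooth muscle and pericyte markers on the 4 GC arrays (left) and the 4 CC arrays (right), each minus its own mean over these 8 arrays in log2 units. Each point is 1 array. GC replicates 2 and 3 carry the highest value of all 4 measures.

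The IGF2 probes gave the same order of TH, GC, and CC but not the same level in oocytes. Each of the 4 probes passed the F-test, with adjusted p between 2.2e-10 and 2.6e-08. Probe 1 was above background on none of the oocyte arrays, and it was at least 621-fold brighter in TH than in oocytes and at least 2.74-fold brighter in CC. This is a bound, taken against the lowest signal that counted as above background on each oocyte array. Probes 3 and 4, which share most of their bases, fell from TH to CC by nearly the same amount, with TH minus CC of 7.11 (SE 0.54) and 7.09 (SE 0.54). Probe 3 was above background on 3 oocyte arrays and probe 4 on all 4. Oocyte minus CC was -4.97 (SE 0.54, adjusted p = 8.5e-07) by probe 3 and -1.66 (SE 0.54, adjusted p = 0.014) by probe 4. For probe 2 the same difference was -0.75 (SE 0.46) and did not pass (adjusted p = 0.18). So TH minus oocyte was large by every probe, while the size of the step from CC to the oocyte depended on the probe.

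IGF1 was a dim gene on this array and also highest in TH. It was -3.62, -3.95, -4.02, and -4.65 in TH, -6.21, -5.67, -6.30, and -6.97 in GC, and -6.43, -7.17, -7.40, and -6.82 in CC. Oocytes had -8.36, -6.31, -8.89, and -8.04. TH did not overlap with any of the other groups, and GC, CC, and oocytes overlapped with each other. TH exceeded GC by 2.23 (SE 0.45, adjusted p = 0.0016) and CC by 2.89 (SE 0.45, adjusted p = 0.00012), while GC minus CC was 0.67 (95% interval -0.30 to 1.63) and did not pass. Against oocytes no size is read from IGF1 in GC or CC, since probes 2 to 6 were above background on no oocyte array and probes 2, 4, 5, and 6 on no GC or CC array. The fit gave -1.61 for oocytes minus GC and -0.95 for oocytes minus CC, while probe 1, seen in oocytes, gave 0.63 and 1.25, neither past the threshold (adjusted p = 0.34 and 0.086). TH was at least 4.18-fold brighter than oocytes by probe 4.

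The IGF1 result rested on some of its probes. Probes 4, 5, and 6, on IGF-I-202 and IGF-I-203, were above background on 4, 3, and 4 of the TH arrays and on no array of any other group. By these probes TH was at least 2.29-fold, 1.97-fold, and 2.19-fold brighter than GC. Probe 3 was above background on 4 TH, 2 GC, and 1 CC arrays and passed the F-test too (adjusted p = 0.0038). Probe 1, on IGF-I-201, behaved differently. It was above background on 4 TH, 3 GC, 3 CC, 1 CC after IVM, and 3 oocyte arrays. Its mean was -4.15 ± 0.68 in TH and -3.24 ± 0.70 in oocytes, and it did not pass the F-test over the 4 cell types (adjusted p = 0.27). By this probe CC after IVM minus oocytes was -1.36 (adjusted p = 0.032 by limma). Probe 2, on the same transcript, was above background on none of the 20 arrays. Taking the brightest probe for the gene turned TH minus GC to -0.28 (adjusted p = 0.76). The excess of IGF1 in TH over GC and CC thus rested on probes 4 to 6, of which 4 and 6 are 1 sequence. By probe 3, TH minus GC was 1.34 (adjusted p = 0.18) and TH minus CC 1.81 (adjusted p = 0.057). With normexp background correction the gene did not pass between TH and GC (0.23, adjusted p = 0.42) or between TH and CC (0.55, adjusted p = 0.11), and with the deposited table both passed at 0.62 and 0.77.

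**Figure D3:**
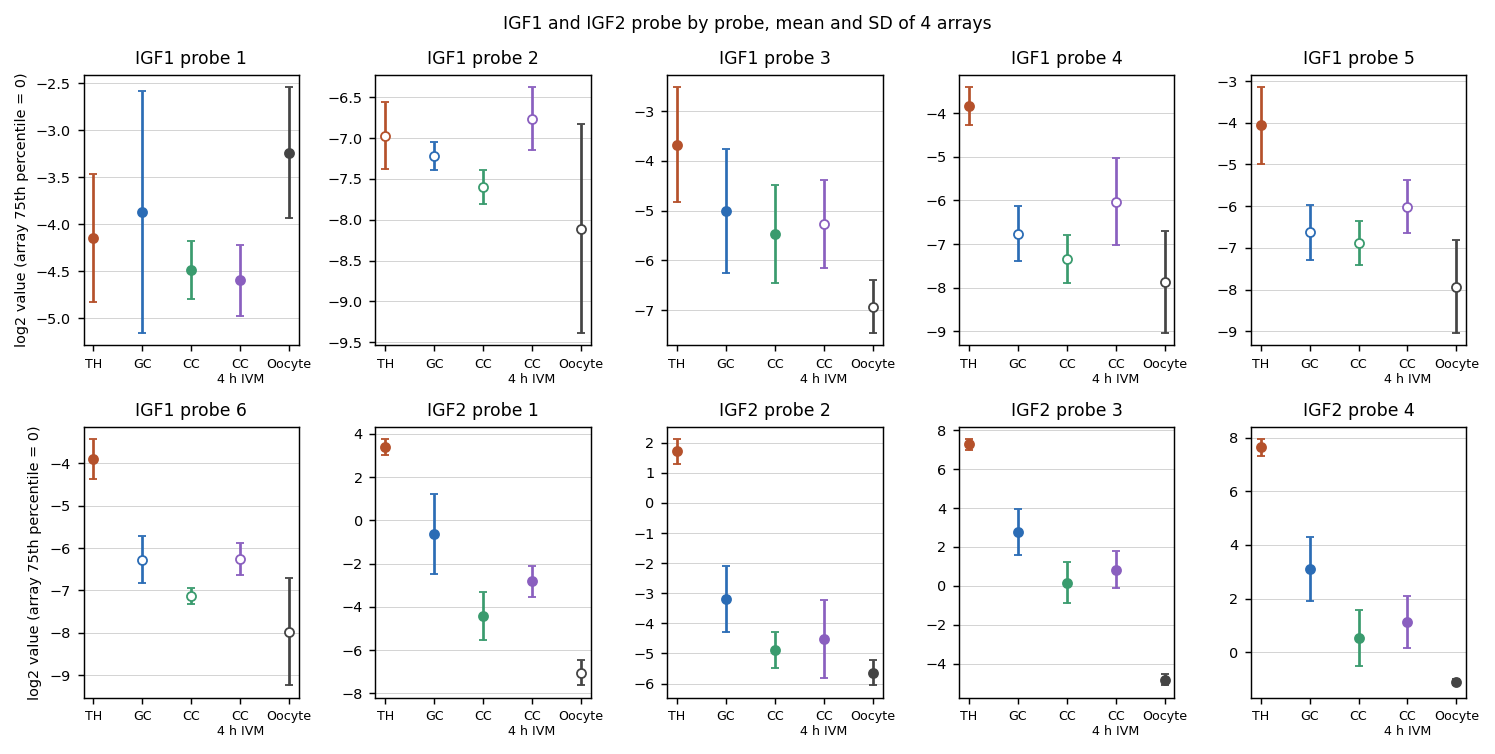
Mean and SD of 4 arrays for each of the 6 IGF1 and 4 IGF2 probes in the 5 groups, in log2 units relative to the 75th percentile of the array; an open point marks a probe above background on no array of the group. IGF1 probes 4 to 6 were above background in TH alone, and IGF1 probe 1 had its highest mean in oocytes and its lowest after IVM. IGF2 probe 3 fell further than probe 4 from CC to oocytes.

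IGF1R, the signalling receptor, was lower in TH than in GC and CC. TH had -3.85, -4.25, -4.23, and -2.61, GC had -1.72, -0.58, -1.73, and -0.16, and CC had -1.16, 0.32, -1.27, and -1.18. Oocytes had -1.47, -4.26, -3.88, and -4.09. GC and CC overlapped and lay above TH, and 3 of the 4 oocyte arrays lay within or just below the range of TH. TH minus GC was -2.69 (SE 0.61, adjusted p = 0.0037), and TH minus CC was -2.91 (SE 0.61, adjusted p = 0.0015). Oocytes were lower than CC by a difference of -2.60 (SE 0.61, adjusted p = 0.0014) and than GC by -2.38 (SE 0.61, adjusted p = 0.0029). GC minus CC was -0.23 (95% interval -1.53 to 1.08). Both probes passed the F-test. Within slides 1 and 2, with 2 arrays a group, TH minus GC was -2.90 and -2.48 (adjusted p = 0.14 and 0.054) and TH minus CC -3.63 and -2.20 (adjusted p = 0.060 and 0.062), none of which passed. Within slide 1, where oocyte replicate 1 lies, oocytes minus GC (-1.71, adjusted p = 0.21), oocytes minus CC (-2.44, adjusted p = 0.086), and the F-test (adjusted p = 0.061) did not pass either.

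IGF2R overlapped between the follicle wall and the cumulus. Its value was -0.98 to -0.12 in TH, -0.97 to 0.05 in GC, and -1.41 to 0.66 in CC, and oocytes had -0.02, -1.41, -2.21, and -1.67. The groups overlapped throughout, with TH minus CC of 0.04 (95% interval -0.95 to 1.02). Oocytes minus GC was -0.93 (SE 0.46, adjusted p = 0.081). Oocyte replicate 1 was the highest of its group, and without it oocytes were lower than TH by 1.33, GC by 1.37, and CC by 1.29 on the log2 scale (adjusted p = 0.011, 0.0095, and 0.013 by limma). Probe 2 passed the F-test (adjusted p = 0.015) and probe 1 did not (adjusted p = 0.72). By probe 2 oocytes were lower than TH (-1.58), GC (-1.29), and CC (-1.12), with adjusted p = 0.0034, 0.013, and 0.028 by limma. By probe 1 none of these pairs passed.

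PAPPA was near or below background in all 4 immature cell types. At least 1 of its probes was above background on 2 TH, 2 GC, 1 CC, and 2 oocyte arrays. The value was -6.76 to -5.19 in TH, -6.56 to -5.38 in GC, -7.42 to -4.66 in CC, and -6.30 to -6.07 in oocytes. No pair of these groups passed. With the deposited table or normexp background correction, PAPPA passed the F-test (adjusted p = 0.0044 and 2e-07) and was called lower in oocytes than in TH (-0.55 and -1.29), GC (-0.59 and -1.51), and CC (-0.49 and -1.23, against 0.10 here). Under these settings the all-gene medians were -0.52 and -1.16 against TH, -0.68 and -1.45 against GC, and -0.65 and -1.24 against CC. The PAPPA differences were thus of the size of the shift of all genes and are not read as a change of the gene.

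Among the binding proteins, IGFBP6 and IGFBP4 were highest in TH, IGFBP2 and IGFBP5 had their highest mean in GC, and IGFBP3 was high in TH and oocytes. The part of the other cells of the follicle wall in the TH values was not tested. IGFBP6, which binds IGF2 with preference over IGF1, was 7.18, 7.14, 7.08, and 7.08 in TH, with an SD of 0.05. GC had 1.59, 3.46, 3.14, and 2.77, CC had 0.24, 0.21, 0.59, and 0.71, and oocytes had -3.06, -2.64, -3.08, and -2.20. The 4 groups did not overlap, in the same order as for IGF2. TH minus GC was 4.38 (SE 0.32, adjusted p = 1.2e-07), a 20.8-fold difference, GC minus CC was 2.30 (SE 0.32, adjusted p = 0.00036), and oocytes minus CC was -3.18 (SE 0.32, adjusted p = 2.8e-07). Without GC replicates 2 and 3, which carry the highest theca markers, GC minus CC was 1.74 and still passed.

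IGFBP4, an inhibitor of IGF action and a substrate of PAPPA, was 4.12, 3.52, 3.70, and 3.46 in TH, -1.45, -0.70, -0.86, and -1.21 in GC, and 0.30, 0.44, 0.37, and 0.58 in CC. It was thus lowest of the somatic cells in GC, with no overlap between GC and CC. TH minus GC was 4.75 (SE 0.34, adjusted p = 9.3e-08), a 27.0-fold difference, and GC minus CC was -1.48 (SE 0.34, adjusted p = 0.011). Neither probe was above background on any oocyte array. TH was at least 776-fold brighter than oocytes, CC at least 80.2-fold, and GC at least 28.7-fold.

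IGFBP3, the main IGF carrier of plasma, was 0.92, 0.71, 1.06, and 2.06 in TH, and 0.76, 0.54, 0.48, and 0.79 in oocytes. CC had -1.15, -2.28, -1.14, and -1.71, and GC had -3.51, -2.14, -3.85, and -3.96. It was the only one of the 10 genes called higher in oocytes than in GC or CC in these fits, by 4.01 (SE 0.39, adjusted p = 1.8e-07) and 2.21 (SE 0.39, adjusted p = 0.00011). Oocytes minus TH was -0.54 (95% interval -1.38 to 0.29). The mean of the 8 theca markers on the oocyte arrays was -5.60 to -3.98, below that of every other group, although 1 of them had its highest mean there. That of the 5 endothelial markers was -4.29 to -3.26 in oocytes, against -5.97 to -5.62 in CC and -5.55 to -4.30 in GC. Among these 5, 1 had its highest mean in oocytes, and CDH5 was above background on no oocyte array. The part of other cells in the oocyte value was not tested. GC was lower than CC, with GC minus CC of -1.80 (SE 0.39, adjusted p = 0.0077), and both probes gave the same order of the 4 cell types.

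IGFBP5, also a substrate of PAPPA, was 0.79, 2.36, 3.07, and 3.39 in GC, 0.49, 0.93, 1.16, and 0.91 in TH, and -0.29, -0.26, 0.55, and 1.34 in CC. GC replicate 1 lay within the range of TH and CC and the other GC arrays above it. GC exceeded CC by 2.07 (SE 0.47, adjusted p = 0.011), and TH minus GC was -1.53 (SE 0.47, adjusted p = 0.025). The second call was lost without TH replicate 1 (-1.40), GC replicate 3 (-1.31), or GC replicate 4 (-1.20), with adjusted p = 0.070, 0.079, and 0.083 by limma. Without both GC replicates 2 and 3, GC minus CC was 1.76 (adjusted p = 0.14). Oocytes had -3.78, -4.30, -3.81, and -3.86, below all somatic arrays, with oocytes minus CC of -4.27 (SE 0.47, adjusted p = 7.5e-07).

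IGFBP2, a binding protein that is known to be abundant in follicular fluid, was -0.87, -2.07, -0.77, and -3.67 in GC. TH had -5.15 to -3.61, CC -4.31 to -3.36, and oocytes -1.49, -3.69, -3.11, and -3.24. Only 3 of the 4 GC arrays lay above TH and CC. TH minus GC was -2.38 (SE 0.60, adjusted p = 0.0073), and GC minus CC was 2.05 (SE 0.60, adjusted p = 0.040). The second call was lost under most alternatives, among them without GC replicate 1 (1.73), 2 (2.13), or 3 (1.70) without any 1 of the 4 CC arrays (1.92 to 2.24), and without TH replicate 1 or 3 or oocyte replicate 3 or 4 (2.05 each). By the F-test IGFBP2 had an adjusted p of 0.0079, which became 0.073 without GC replicates 2 and 3, and TH minus GC was then -1.96 (adjusted p = 0.080).

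Counted over pairs, the arrays of TH and GC did not overlap in 6 of the 10 genes, beside 30.4% of all genes, those of TH and CC in 6, beside 35.1%, and those of GC and CC in 3, beside 26%. Oocytes did not overlap with TH in 5 genes, beside 58.5%, with GC in 5, beside 57.3%, or with CC in 6, beside 60.4%. Leaving out GC replicates 2 and 3, GC and CC differed in 3 genes in place of 6, IGFBP3, IGFBP4, and IGFBP6. Within slide 1 the count was 0 by limma (4 at an unadjusted p under 0.05), and within slide 2 it was 4.

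**Figure D4:**
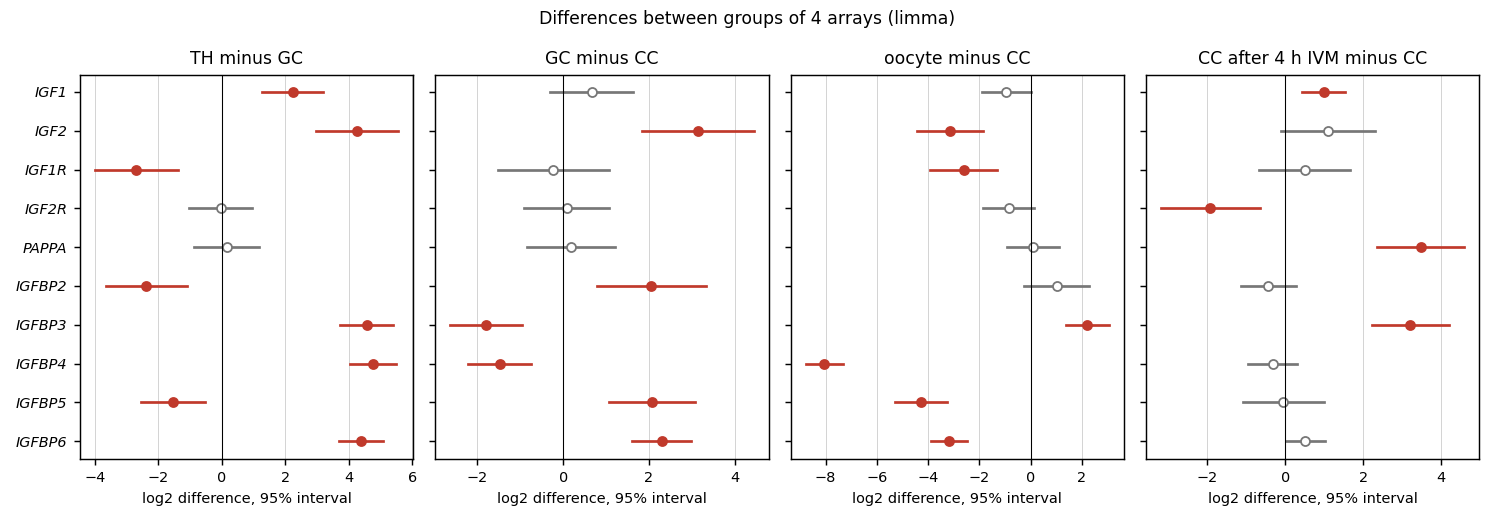
Differences of the 10 genes between 4 pairs of groups in log2 units, with 95% intervals from limma and n = 4 arrays a group. Filled red points passed an adjusted p of 0.05 over all genes and open grey points did not. The IGFBP4 difference between oocytes and CC (-8.04) rests on oocyte spots below background and stands for a bound of at least 80.2-fold. After 4 h of IVM, PAPPA and IGFBP3 moved most.

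After 4 h of IVM, 4 of the 10 genes differed in CC, with PAPPA, IGFBP3, and IGF1 higher and IGF2R lower, beside 45.8% of all genes, of which 30.3% were higher and 15.5% lower. In 3 of the 10 genes the arrays before and after IVM did not overlap, beside 44% of all genes. PAPPA went from -6.58, -7.42, -6.61, and -4.66 in CC to -3.16, -2.85, -2.47, and -2.86. Every array after IVM was above every CC array, and both probes were above background on all 4 arrays after IVM, against 1 CC array, replicate 4. The rise was 3.48 (SE 0.50, adjusted p = 0.00064 by limma), a size that rests on CC signals below background on 3 of 4 arrays. By probe 1, CC after IVM was at least 7.10-fold brighter than TH and at least 5.95-fold brighter than GC, where that probe was above background on no array. The rise over CC was 4.10 by probe 1 (adjusted p = 0.0018) and 2.86 by probe 2 (adjusted p = 0.0027). CC replicate 4 was also the CC array with the highest mean of the oocyte markers (-1.97, against -4.02 to -3.03 on the others). PAPPA in the oocytes themselves was -6.30 to -6.07, and the part of oocyte RNA in CC replicate 4 was not tested. Without CC replicate 4 the rise still passed, against CC arrays that were all below background. CC after IVM also exceeded TH by 3.15 (SE 0.44, adjusted p = 9.2e-06) and GC by 3.30 (SE 0.44, adjusted p = 9.7e-06).

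IGFBP3 went from -1.15, -2.28, -1.14, and -1.71 in CC to 0.58, 2.57, 1.19, and 2.18 after IVM. The groups did not overlap, and the difference was 3.20 (SE 0.45, adjusted p = 0.00054), or 9.20-fold. Both probes rose alike, by 3.18 and 3.22. This brought CC to the level of TH, from which CC after IVM differed by 0.44 (95% interval -0.48 to 1.36). PAPPA and IGFBP3 rose under each of the alternatives, by 1.32 to 4.10 and by 2.55 to 3.55, with the smallest PAPPA rise after normexp background correction.

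IGF2R fell, from -0.45, 0.66, -1.41, and -0.69 to -3.38, -2.72, -0.85, and -2.64. Replicate 3 after IVM lay within the range of CC and the other 3 below it. The difference was -1.93 (SE 0.57, adjusted p = 0.023), with -2.30 by probe 1 and -1.55 by probe 2, both past the threshold. Probe 2 was above background on all 4 arrays of each group, but probe 1 on only 1 array after IVM. The size by probe 1, and with it that of the gene, thus rests in part on signals not above background. The call was lost without CC replicate 1 (-1.92), CC replicate 2 (-1.55), and replicates 1 (-1.60) and 4 (-1.85) after IVM, with adjusted p between 0.052 and 0.059 by limma.

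IGF1 was -6.17, -5.93, -5.66, and -6.15 after IVM, above all CC arrays by a mean difference of 0.98 (SE 0.25, adjusted p = 0.013). Of its probes, only probe 1 was above background after IVM, on 1 array, and probe 1 itself differed by -0.11 (adjusted p = 0.74). The IGF1 call was lost after quantile normalization (0.64, adjusted p = 0.061) and with all 20 arrays in 1 fit (adjusted p = 0.075), so it is a difference between values at background. The remaining 6 genes did not pass. IGF2 was -1.60, -0.36, -0.22, and -1.79 after IVM and differed by 1.09 (95% interval -0.12 to 2.29), and IGFBP6 was 0.58 to 1.34 and differed by 0.51 (95% interval 0.02 to 1.01, adjusted p = 0.083). IGF1R differed by 0.50 (95% interval -0.67 to 1.66), IGFBP4 by -0.32 (-0.95 to 0.31), IGFBP5 by -0.05 (-1.09 to 0.99), and IGFBP2 by -0.44 (-1.14 to 0.26). Of 6 genes known to respond in maturing cumulus, 4 had their highest mean after IVM, and the mean of the 6 was -4.46 to -3.64 in CC and -0.91 to -0.12 after IVM. Other marker means differed without overlap too. That of the 7 granulosa and cumulus markers was 3.85 to 4.45 in CC and 2.76 to 3.67 after IVM, that of 4 leukocyte markers -5.87 to -4.38 and -4.33 to -3.21, and that of 5 endothelial markers -5.97 to -5.62 and -5.50 to -4.12. PTPRC, which defines leukocytes, and CDH5, which defines endothelium, were above background on no array of either group. CD3E of the leukocyte list and PECAM1 of the endothelial list were above background after IVM and on no CC array. The part of these cells in the IVM differences was not tested.

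With the slide taken as a random block, chosen after seeing the data, 6 genes passed for IVM, IGF2 (adjusted p = 0.018) and IGFBP6 (adjusted p = 0.011) being added. The estimated correlation within a slide was negative (-0.261), and an estimate from 3 slides does not separate IVM from its slide. Called genes rose and fell in the numbers 3 and 1 here, 2 and 1 after quantile normalization, 5 and 1 with normexp correction, in which IGF2 and IGFBP6 were added (adjusted p = 0.045 and 0.030), and 3 and 2 with the deposited table, in which IGFBP4 was also lower (-0.69, adjusted p = 0.041).

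The wider pathway was followed through lists. Of 14 extracellular partners of the IGF system, 13 were found on the array by name, INSR being the other. Between TH and GC, 5 of the 13 differed, all higher in TH, beside 26.3% of all genes (4 to 6 higher under the scalings tried), with a list median of 0.24 beside -0.22 for all genes. The largest were STC1 (2.11, adjusted p = 0.0012), a glycoprotein that inhibits PAPPA, HTRA1 (1.74, adjusted p = 0.0023), a secreted serine protease that cleaves binding proteins, GHR (1.24, adjusted p = 1e-05), the growth hormone receptor, and HTRA3 (1.18, adjusted p = 0.014). The last was lost with the deposited table (0.22) and turned to -0.01 with normexp correction. Between oocytes and CC, 9 differed, 3 higher in oocytes and 6 lower, beside 63.7% of all genes (0 to 3 higher and 6 to 11 lower under the scalings). HTRA1 was above background on no oocyte array and at least 74.9-fold brighter in CC. IGFBP7, a binding protein of low affinity for IGF, was 6.41 ± 0.09 in CC and -0.92 ± 0.39 in oocytes. STC1 and ADAM28, a metalloproteinase known to cleave IGFBP3, were lower in oocytes too (-3.67 and -3.46).

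After IVM, 7 of the 13 differed in CC, 6 higher and 1 lower, beside 45.8% of all genes (3 to 9 higher and 0 to 4 lower under the scalings), with a list median of 0.39 beside 0.37 for all genes. Of the 6, INSRR and STC2 were above background on no array of either group and IGFALS on 1 array after IVM. STC1 moved most. It was 2.95, 2.98, 3.40, and 3.25 in CC and 6.23, 8.21, 6.48, and 6.88 after IVM, without overlap, a difference of 3.80 (SE 0.39, adjusted p = 9.1e-05). IGFBPL1, an IGFBP-like protein, was above background on no CC array and on all 4 after IVM, at least 2.67-fold brighter (adjusted p = 0.0021). IGFBP1 was above background on 2 arrays after IVM and on no CC array, at least 1.59-fold brighter (adjusted p = 0.0020). ADAM28 was lower by a difference of -1.42 (adjusted p = 0.015), which turned to 0.15 with normexp correction.

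**Figure D5:**
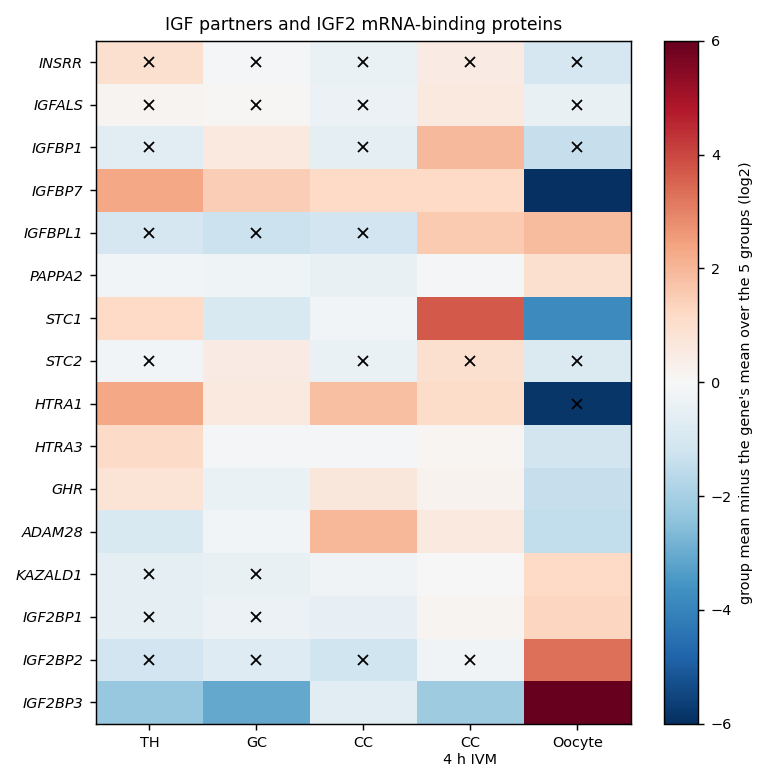
Group means of the 13 extracellular IGF partners and the 3 IGF2 mRNA-binding proteins, each minus the mean of the same gene over the 5 groups, in log2 units (red higher, blue lower, colours end at -6 and 6). A cross marks a gene with no probe above background on any of the 4 arrays of the group. STC1 stands out after 4 h of IVM and IGF2BP3 in oocytes.

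The 3 IGF2 mRNA-binding proteins, which bind the IGF2 transcript and regulate its stability and translation, were each above background on all 4 oocyte arrays. All 3 were called higher there than in TH, GC, and CC, beside 32.5%, 30.7%, and 31.8% of all genes (2 to 3 under the scalings). With normexp correction IGF2BP1 was not called higher in oocytes, with differences from TH, GC, and CC of -0.05, -0.41, and -0.16. IGF2BP3 was 5.07 ± 0.07 in oocytes, -3.71 ± 1.04 in CC, -5.28 ± 0.96 in TH, and -6.08 ± 0.28 in GC, with oocytes minus CC of 8.78 (SE 0.47, adjusted p = 1.6e-10). On the CC arrays it was -3.39, -4.68, -4.38, and -2.39, beside oocyte marker means of -3.03, -3.78, -4.02, and -1.97. The part of oocyte RNA in these CC values was not tested. IGF2BP2 was above background on all 4 oocyte arrays and on no array of any other group, at least 7.42-fold brighter than in CC (adjusted p = 8.5e-12). IGF2BP1 was above background on no TH or GC array and on 1 CC array, and was at least 1.05-fold brighter in oocytes than in TH, with no bound above 1 against GC. Its difference from CC was 1.78 (adjusted p = 0.00038), and -0.16 with normexp correction. After IVM, 1 of the 3 differed in CC, IGF2BP2 (0.96, adjusted p = 0.0028), without being above background in either group.

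Of 31 genes of signalling inside the cell, 13 differed between TH and GC, 3 higher and 10 lower in TH, beside 26.3% of all genes (11.8% higher and 14.5% lower), with a median of -0.25 beside -0.22 for all genes. GRB10 and GRB14, adaptors that bind the receptor and restrain its signal, moved in opposite directions. GRB10 was higher in TH by 4.18 (adjusted p = 2.4e-08), and GRB14 was lower in TH by a difference of -3.48 (adjusted p = 2.8e-08). FOXO1, a transcription factor that AKT keeps out of the nucleus, was lower in TH (-2.57, adjusted p = 5.1e-09), and so was PIK3R1, a regulatory subunit of PI3-kinase (-1.63, adjusted p = 3.8e-05). Between oocytes and CC, 22 of the 31 differed, 14 higher and 8 lower in oocytes, beside 63.7% of all genes, 31.8% higher and 32% lower (7 to 16 higher and 8 to 15 lower under the scalings). GRB14 (-6.99), EIF4EBP1 (-3.41), a repressor of translation under control of mTOR, and the docking protein IRS1 (-3.07) were lower, and PIK3R1 was higher (3.27).

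After IVM, 16 of the 31 differed in CC, 7 higher and 9 lower, beside 45.8% of all genes, 30.3% higher and 15.5% lower (6 to 18 higher and 7 to 10 lower under the scalings), with a median of -0.05 beside 0.37 for all genes. GRB10 was above background on no CC array and on 3 after IVM, at least 1.94-fold brighter (adjusted p = 0.0093), a call lost after quantile normalization (adjusted p = 0.060). FOXO4 fell by 2.30 on the log2 scale (adjusted p = 0.00013), and TSC2, an inhibitor of mTOR complex 1, fell by 1.47 (adjusted p = 0.00029). FOXO3 was lower by a difference of -1.41 (adjusted p = 0.0076), which was -0.15 with the deposited table and turned to 0.29 with normexp correction.

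The genes with the pattern most like that of each member were sought over the 20 arrays among 14980 named genes, by Pearson r of log2 values, as a description in which the 20 points share 5 groups. IGF2 and IGFBP6 were each among the 3 nearest of the other (r = 0.982), both with BGN, the matrix proteoglycan biglycan (0.983 and 0.984), and with OLFML3 (0.978) and C1S (0.984). IGFBP4 was nearest to FMOD (fibromodulin, 0.994), PDGFRL (0.982), and MATN2 (0.981), and IGF1 to JCAD (0.974), SPRED1 (0.961), and SLIT2 (0.955). IGFBP3 was nearest to CXCR4 (0.938), EPAS1 (0.921), and FZD6 (0.910), and IGFBP5 to POLR3F (0.943), SCARNA17 (0.937), and FAM229A (0.936). IGF1R was nearest to PGP (0.910), TMEM120A (0.883), and ADARB1 (0.880). IGFBP2 had the weakest nearest genes, PTGS2 (0.821), FAM199X (0.805), and KLHDC10 (0.794).

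The 5 groups were also ordered by the mean of each gene, and each step between neighbours was tested. IGF2 and IGFBP6 kept the order TH, GC, CC after IVM, CC, oocyte, in which only CC after IVM and CC did not differ. For IGFBP4 the order was TH, CC, CC after IVM, GC, oocyte, with CC and CC after IVM not told apart. For IGF1R, CC after IVM, CC, and GC did not differ from their neighbours and lay above oocytes and TH, which did not differ from each other. For IGFBP3 the steps from oocytes to CC and from CC to GC passed, and for IGFBP5 those from GC to TH and from CC after IVM to oocytes. For PAPPA only the step from CC after IVM to TH passed, for IGF1 only that from TH to CC after IVM, and for IGF2R and IGFBP2 no step between neighbours passed. CC after IVM differed from TH in 7 genes, beside 43.7% of all genes, with 2 higher after IVM (25.3%) and 5 lower (18.5%). It differed from GC in 8, beside 28.1%, with 3 higher (13.9%) and 5 lower (14.3%), and from oocytes in 9, beside 80.2%, with 8 higher (49.8%) and 1 lower (30.4%). Its arrays did not overlap with TH in 6 genes, beside 46.3%, with GC in 4, beside 26.4%, and with oocytes in 6, beside 56%. The split of called genes against oocytes was 7 higher and 2 lower with quantile normalization or the deposited table and 8 and 0 with normexp correction.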

How the data were processed

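Per the file headers, the authors scanned the arrays with Agilent Feature Extraction 10.7.3.1 (array design on UMD 3.1) and deposited per spot an intensity after background subtraction, not normalized between arrays. A deposited value table on the log2 scale was log2 of the median pixel signal minus the median of the array, within 5.0e-09, with no background subtracted; how it was made is not given further in the sources used here.

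Spots of control probes or marked as outliers were not used. From each log2 processed signal the 75th percentile of its array, taken over every probe, was subtracted. Gene names of 1069 genes were updated by RefSeq accession (ARS-UCD2.0). limma 3.58.1 (lmFit, eBayes; R 4.3.3, data.table in version 1.17.8) was fitted to 16 arrays without IVM (F-test and 6 pairs of cell types), to the 8 CC arrays with and without IVM, and to all 20 arrays for CC after IVM against TH, GC, and oocytes. The methods' test was an ANOVA, run as an alternative. Where no array of a group had a gene above background, "at least" folds are given. They set the mean of the other group against a limit, for which each dim array contributed either its measured value or its faintest signal that passed as above background, whichever was larger. Tables and plots were made in Python 3.11.15 (numpy 2.4.6, scipy 1.17.1, pandas 2.3.3; plots with matplotlib 3.10.9). The scripts were tested on simulated data.

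The 10 members, the pathway and marker lists and the rules were chosen with earlier results of these data known. All 10 members were named whatever their result, up to 4 called genes of each list with the largest difference, and the 3 genes most like each member called by the F-test. Alternatives were quantile normalization, the percentile over probes above background on all arrays, the deposited values, normexp correction of the background with an offset of 50, the mean over spots, the brightest probe, a filter on dim genes (above background on at least 3 arrays of a group), blocks for replicate number and for slide, each slide alone, all 20 arrays in 1 fit, each probe on its own and leaving out each array. Slide as a random block and leaving out GC replicates 2 and 3 were added after seeing the data. Arrays of TH and GC with the same number deviated together (r 0.121 to 0.344, 4 of 4 pairs above 0.1), which the other pairs of groups did not do throughout, and the slides split by the same numbers. The labels number the replicates and do not say which animals or pools they came from, so p-values measure the spread between these samples. No 2 arrays of a group were identical (r 0.959 to 0.989). The number of arrays limits the precision.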

Additional observations from a re-analysis of the deposited data

Results flagged for a closer look

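Of 50 groups of 4 arrays (10 genes in 5 groups), 4 held an array whose distance from the nearest of the others, divided by the range of the group, exceeded Dixon's critical value. By chance about 1 in 20 groups is marked in this way. IGF1R in CC replicate 2 was 0.32, against -1.27 to -1.16 on the other CC arrays, and IGF1R in oocyte replicate 1 was -1.47, against -4.26 to -3.88. On the same oocyte array IGF2R (-0.02) and IGFBP2 (-1.49) were also the highest of the group. Oocyte replicate 2 held the others, with IGFBP4 at -6.28 (-8.19 to -7.94 on the other oocyte arrays, none of them above background) and IGFBP5 at -4.30 (-3.86 to -3.78). This is the array with the lowest share of probes above background (49.3%). The part of this share in the values was not tested.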

How the results depend on the processing

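The number of the 10 genes called kept within 1.5 times of its value in all but 3 cases. Within slide 1, with 2 arrays a group, TH minus GC gave 3 genes in place of 8 and GC minus CC gave 0 in place of 6. Without GC replicates 2 and 3, GC minus CC gave 3. Leaving out 1 array at a time gave 8 to 9 genes for the F-test, 7 to 8 for TH minus GC, 6 for TH minus CC, 5 to 6 for GC minus CC, 5 to 6, 7 to 9, and 6 to 7 for oocytes minus TH, GC, and CC, and 3 to 4, 7, 7 to 8, and 7 to 9 for CC after IVM minus CC, TH, GC, and oocytes.

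With the replicate number as a block, the pairing gave 8 genes for the F-test, 8 for TH minus GC, 6 for TH minus CC, 6 for GC minus CC, 6, 7, and 6 for oocytes minus TH, GC, and CC, and 4, 7, 8, and 8 for CC after IVM minus CC, TH, GC, and oocytes.

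Some differences of single genes changed sign, most of them where the gene was not called. The following did so where the gene was called under the main or the other setting. With the brightest probe, IGF1 gave -0.28 for TH minus GC, 0.91 and 0.63 for oocytes minus TH and GC, -0.11 for CC after IVM minus CC, and -1.36 for CC after IVM minus oocytes. With normexp correction, CC after IVM minus TH was 0.16 for IGF1, CC after IVM minus oocytes was 0.21 for IGFBP2, and oocytes minus CC was -1.23 for PAPPA, which was -0.49 with the deposited table. The all-gene medians with normexp correction were 0.62, 1.70, and -1.24 in these comparisons. For oocytes minus CC the median was -0.65 with the deposited table. The cause was not tested. Slide as a fixed block and each slide alone were not run for CC after IVM, whose arrays share 1 slide. For PAPPA and IGF1, signals near background limit what the immature cells can show.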
